A study of Mus musculus with 6 samples.

Results

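The clustered histone genes are the protein-coding members of the Hist1, Hist2, Hist3 and Hist4 loci, which encode the linker histone H1 and the core histones H2A, H2B, H3 and H4. They were taken from the deposited gene table by biotype and by symbol, and they number 67 of the 54532 genes listed. Expression was measured by RNA sequencing in CD8 microbead-selected bone marrow cells of female CByB6F1 mice aged 2 to 5 months. All of the mice had immune bone marrow failure (BMF), so the controls carried the disease too. The ruxolitinib group, given a drug that inhibits the JAK1 and JAK2 kinases, has 3 libraries (pools 1 to 3), and the untreated control group has 3 libraries (pools 4 to 6). Each library was a pool of cells from 2 to 3 mice of one group, so that p-values measure the spread between pools. The dose, the length of treatment and the time at which marrow was taken were not given in the sources used here.

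Histones package DNA into nucleosomes, in which the core histones form a protein spool and H1 sits on the linker DNA. Most clustered histone genes lack introns and are transcribed mainly in S phase, when new DNA needs new nucleosomes. Their mRNAs usually end after a conserved stem-loop bound by the stem-loop binding protein SLBP instead of carrying a poly(A) tail, and some of these genes can also make polyadenylated mRNA in cells that have left the cell cycle, by using a signal further downstream or by splicing.

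Of the 67 members, 54 lie in the Hist1 locus (mm10 chromosome 13, 21715763 to 23934851), 10 in Hist2 (chromosome 3, 96219865 to 96270132), 2 in Hist3 (chromosome 11, 58948920 to 58956830) and 1 in Hist4 (chromosome 6, 136801553 to 136804415). By type there are 6 H1, 18 H2A, 18 H2B, 12 H3 and 13 H4 genes. All 67 have the same coordinates in GENCODE release M21 (GRCm38). The stem-loop was searched for in the GENCODE transcripts after the stop codon, and it was found in 46 of the 52 members whose annotation runs at least 16 bases past the stop. The annotation of the other 15 ends within 2 bases of the stop codon. The stem-loops of 8 members that the results turn on are shown to mark the end that the replication-dependent mRNA normally uses. Each is written 5′ to 3′ as DNA, with the 16 bases of the stem-loop in capitals and 5 bases on either side.
Hist1h1c: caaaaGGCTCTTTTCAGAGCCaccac
Hist1h2bg: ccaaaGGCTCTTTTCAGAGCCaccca
Hist3h2ba: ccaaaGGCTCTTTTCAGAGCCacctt
Hist1h2ae: acaaaGGCTCTTTTCAGAGCCattca
Hist1h2bj: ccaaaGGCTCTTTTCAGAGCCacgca
Hist1h3c: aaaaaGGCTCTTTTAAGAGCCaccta
Hist1h4i: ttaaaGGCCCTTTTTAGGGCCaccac
Hist1h4c: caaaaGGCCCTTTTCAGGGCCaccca
Searched within 100 bases after the stop, the element was present in 88.5% of the 52 members, against 0.10% of 20929 other protein-coding genes. Hist1h2bc, Hist2h2be and Hist1h2bq carried none in their annotated 3′ region.

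Histone reads were a small share of each library. The members together had 3355, 4363 and 3004 counts in ruxolitinib pools 1 to 3 and 3028, 3064 and 4063 counts in control pools 4 to 6, out of 13829808 to 17708196 counts per library. Whether poly(A) RNA was selected, whether counting used strand and how reads that match several genes were handled were not given in the sources used here. The make-up of the libraries differed between the groups: haemoglobin genes took 13.4 to 22.6% of the counts in ruxolitinib pools and 0.179 to 0.258% in control pools. Of 17 CD8 T cell identity genes, 16 fell and none rose, with a summed level of 1888 to 5406 CPM (the usual depth-scaled count, here with TMM factors) in ruxolitinib pools and 10623 to 12897 CPM in control pools. Of 13 erythroid markers 13 rose (summed 125229 to 245435 CPM in ruxolitinib pools and 1918 to 2749 CPM in control pools), as did 13 of 13 monocyte and macrophage markers (8803 to 14540 and 1168 to 1563 CPM), 11 of 12 B cell markers (1079.9 to 1666 and 211 to 272 CPM), 6 of 8 progenitor markers (295 to 597 and 30.7 to 43.9 CPM) and 9 of 13 granulocyte markers (8848 to 20539 and 1574 to 6067 CPM), of which 1 fell. Over all 13480 tested genes 29.9% were higher and 25.3% lower. None of these markers was listed at 0. Their part in the histone results was not tested, and fewer cells of a type and less RNA per cell cannot be told apart in bulk libraries.

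Histone genes moved in both directions, and H1, H2A and H2B each held rises and falls. H2B genes held most of the rises, led by Hist1h2bg, Hist2h2be and Hist1h2bc, and the H1 gene Hist1h1c rose. H3 and H4 genes gave falls and no rise, and most H2A genes that passed the test fell. Of the 67 members, 41 passed the filter on low counts and were tested, 18 had 1 to 47 counts over all 6 libraries and were not tested, and 8 had no count. Among the 41, 7 rose and 16 fell (edgeR quasi-likelihood test, Benjamini-Hochberg adjusted p under 0.05 over all 13480 genes tested). That is 17.1% higher and 39.0% lower, where over all tested genes 29.9% were higher, 25.3% lower and 55.2% called in either direction. The groups did not overlap for 8 members higher and 20 lower under ruxolitinib, against 35.7% and 30.4% of all tested genes. The median log2 fold change, ruxolitinib over control, of the 41 was -1.15, with a range of -2.94 to 3.55, where the median of all tested genes was 0.03. A member tested only because 1 group was high had to differ, so these counts describe the members that passed the filter. Of the called members, Hist1h2bq, Hist1h2ai and Hist1h4f were below the filter's cutoff in every pool of their lower group. Hist1h2ab, Hist1h2ac, Hist1h2ae, Hist1h2bg, Hist1h3e, Hist1h3h and Hist1h4c were below it in at least 1 pool of theirs, so they too needed the higher group to pass.

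By type, 1 of 5 tested H1 genes rose and 2 fell (median log2 fold change -1.15), 1 of 8 H2A genes rose and 4 fell (-1.62), 5 of 11 H2B genes rose and 1 fell (0.82), 0 of 8 H3 genes rose and 4 fell (-1.45), and 0 of 9 H4 genes rose and 5 fell (-1.18). By locus, 5 of the 35 tested Hist1 genes rose and 16 fell, while 1 of 3 Hist2 genes and 1 of 2 Hist3 genes rose. Neither locus held a fall. The number that fell was 9 without ruxolitinib pool 1 and 10 without ruxolitinib pool 3. The directions depend on the scaling: with each library scaled to its CD8 identity genes instead, the median log2 fold change of all tested genes was 2.00, 12 of the 41 members were called higher and 0 lower, against 70.5% of all tested genes higher and 0.467% lower. On that scale the 7 members that rose stayed called and lay above the median of all genes, and the 16 that fell all lay below it. This scaling moves all genes up together, so the side of the median was largely set by the main fit. It is no separate support for the calls. Values below use TMM scaling.

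**Figure D1:**
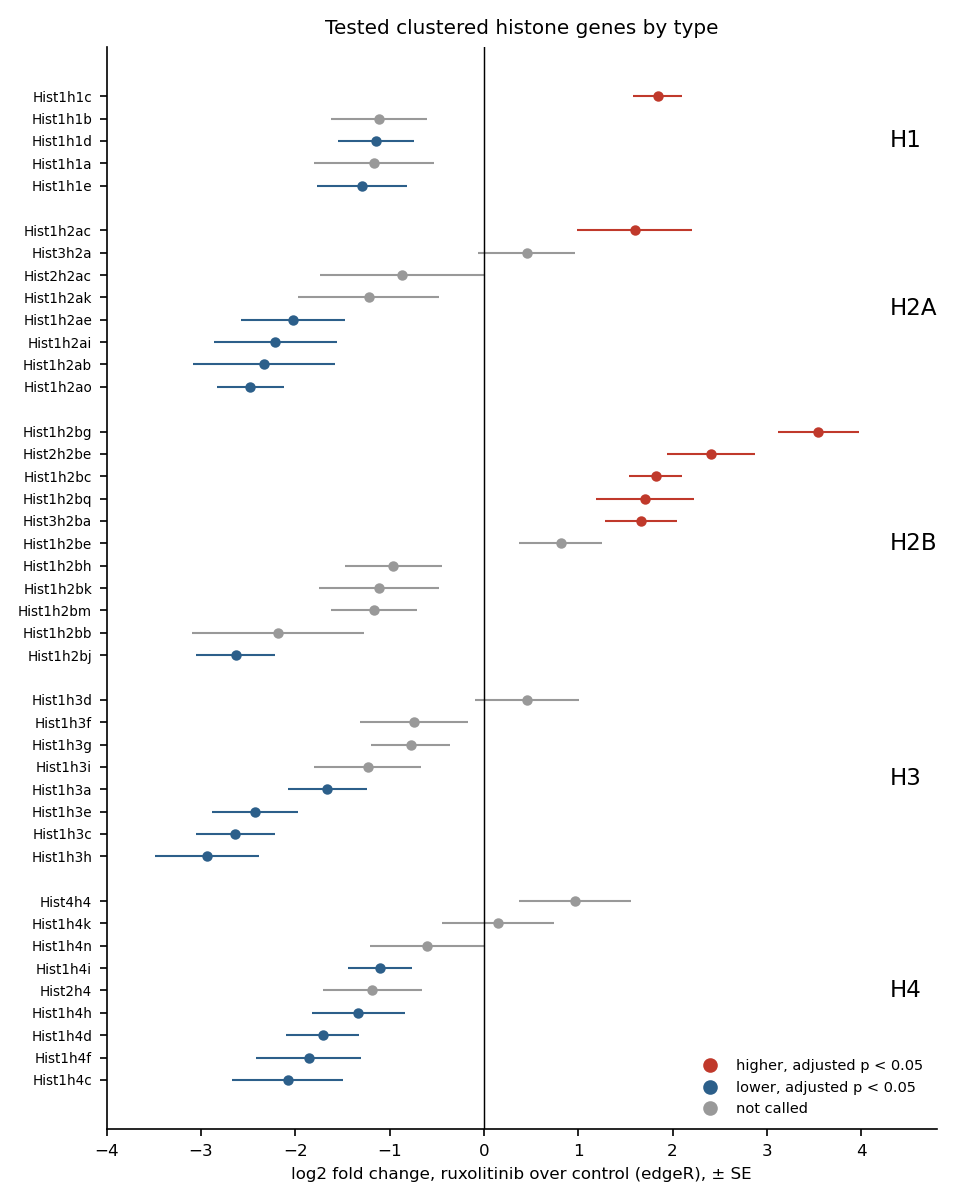
Log2 fold change, ruxolitinib over control, of the 41 tested clustered histone genes, grouped by type and ordered by size, with bars for the SE of the edgeR fit. Red points are members that rose, blue points are members that fell and grey points did not pass the test; the rises are 5 H2B genes, Hist1h1c and Hist1h2ac, and no H3 or H4 gene is red (with scaling to CD8 identity genes no member is called lower).

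The summed level of each type, over all of its members, differed in direction between types. H1 genes together had 130, 151 and 88.0 CPM in ruxolitinib pools 1 to 3 and 39.4, 44.2 and 56.4 CPM in control pools 4 to 6. H2B genes had 75.3, 107 and 57.4 CPM in the ruxolitinib pools and 37.4, 38.2 and 39.8 CPM in the control pools. Every ruxolitinib pool was above every control pool in both sums, with differences of 1.38 and 1.01 between the group means of the log2 sums.
H3 genes together had 6.65, 12.1 and 9.78 CPM in ruxolitinib pools and 23.5, 28.0 and 41.5 CPM in control pools. H2A genes had 8.18, 16.8 and 9.72 CPM in ruxolitinib pools and 21.7, 23.6 and 32.0 CPM in control pools. H4 genes had 24.7, 44.9 and 24.7 CPM in ruxolitinib pools and 45.5, 66.3 and 83.1 CPM in control pools. Every ruxolitinib pool was below every control pool in these 3 sums, with log2 differences of -1.71 for H3, -1.20 for H2A and -1.07 for H4 that turned to 0.15, 0.65 and 0.79 with scaling to CD8 identity genes. Each of the 5 differences had an exact two-sided permutation p of 0.1, the smallest that 3 against 3 can give. The total over all members was 255 ± 71.3 CPM in ruxolitinib pools and 207 ± 43.1 CPM in control pools (SD, n = 3 each), with overlapping groups and an exact permutation p of 0.5. Of these totals Hist1h1c alone gave 117 ± 32.4 CPM in ruxolitinib pools and 32.6 ± 5.69 CPM in control pools. Without that gene the mean total is lower in the ruxolitinib pools.
The H1 sum rested on a single gene. Without Hist1h1c, the remaining H1 genes had 4.82, 6.68 and 7.07 CPM in ruxolitinib pools and 11.2, 13.7 and 17.4 CPM in control pools, so that every ruxolitinib pool was below every control pool. The log2 difference was then -1.18, also with an exact permutation p of 0.1.

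**Figure D2:**
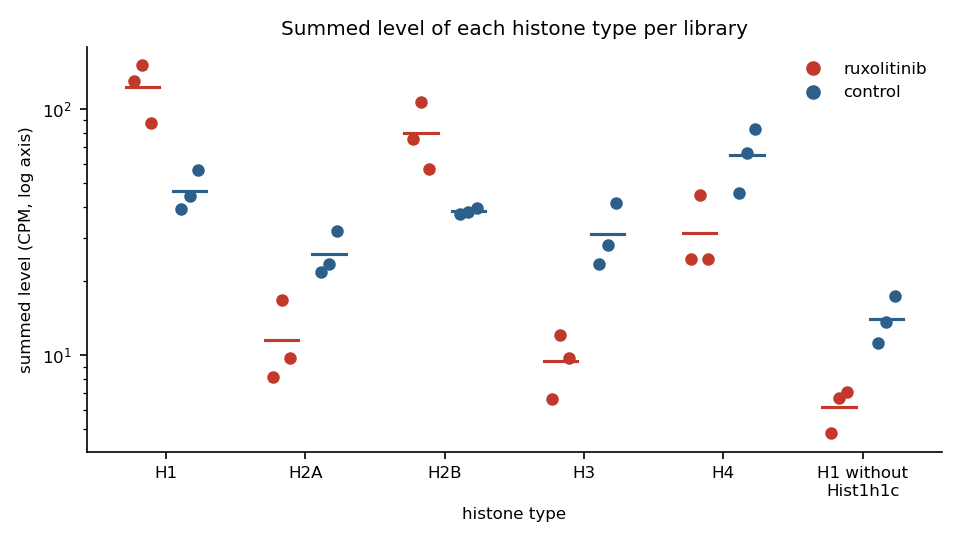
Summed level in CPM, on a log axis, of each histone type in every library, with ruxolitinib in red, controls in blue and a line at each group mean. H1 and H2B are higher under ruxolitinib (H1 123 against 46.7 CPM and H2B 79.8 against 38.5 CPM) and H2A, H3 and H4 lower, and H1 is lower once Hist1h1c is left out; with scaling to CD8 identity genes the H2A, H3 and H4 differences turn positive.

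The composition of the histone reads does not depend on library scaling. H1 made up 48.4 ± 4.18% of the members' counts in ruxolitinib pools and 22.6 ± 0.792% in control pools (SD, n = 3 each), and H2B made up 31.1 ± 1.04% and 19.1 ± 3.29%. H4 made up 12.2 ± 1.87% in ruxolitinib pools and 31.0 ± 3.38% in control pools. H3 made up 3.84 ± 1.24% in ruxolitinib pools and 14.8 ± 1.40% in control pools, and H2A 4.52 ± 1.02% and 12.5 ± 0.619%. The groups did not overlap for any type, and each exact permutation p was 0.1, also after adjustment over the 5 types. The shares sum to 100, so the 5 differences are not independent. Most H1 counts were those of Hist1h1c. The other H1 genes had 66, 88 and 112 counts in ruxolitinib pools and 203, 209 and 280 in control pools. The larger H1 share thus rested on that gene, which also lowers the other shares. Shares without it were not computed.

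**Figure D3:**
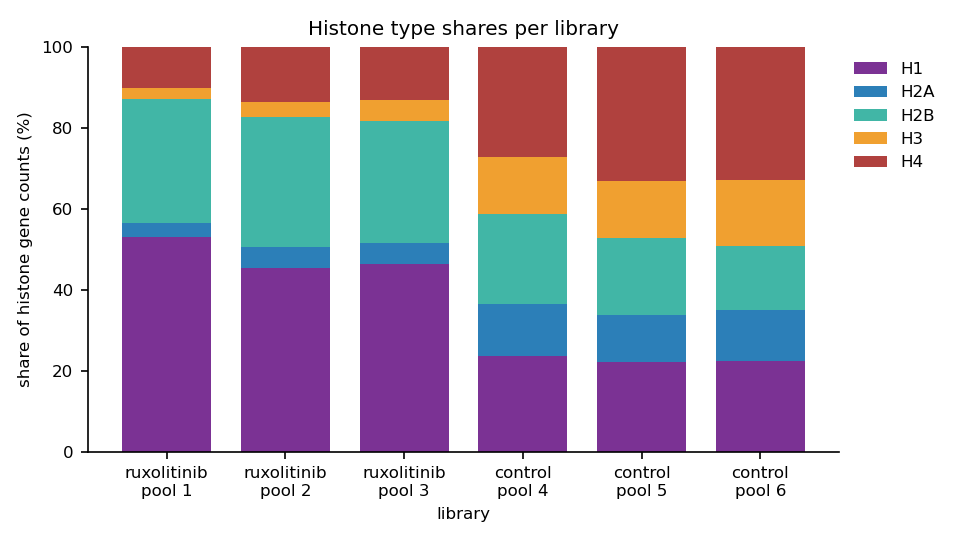
Share of each histone type in the members' total count, in percent, for the 3 ruxolitinib pools and the 3 control pools. H1 and H2B fill most of each ruxolitinib bar (means of 48.4% and 31.1%), while H4 is the largest part of the control bars on average (31.0%). Most H1 counts in every bar are those of Hist1h1c.

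Linker histone H1 binds the DNA between nucleosomes and helps compact chromatin. Hist1h1c (chromosome 13, 23738808 to 23740367) had 125, 144 and 81.0 CPM in ruxolitinib pools and 28.2, 30.5 and 39.0 CPM in control pools. It rose in all 3 ruxolitinib pools over all 3 control pools, with a log2 fold change of 1.84 ± 0.26 (SE) and an adjusted p of 0.000362 in the edgeR fit. Per kilobase of deposited gene length it was the most abundant member, at a mean of 47.9 CPM per kb over the 6 libraries.
Hist1h1e had 1.10, 2.13 and 2.15 CPM in ruxolitinib pools and 4.04, 6.73 and 2.43 CPM in control pools. Hist1h1d had 1.61, 2.13 and 2.15 CPM in ruxolitinib pools and 3.37, 3.33 and 6.35 CPM in control pools. Both fell, with no overlap between groups, by log2 fold changes of -1.29 ± 0.48 (adjusted p = 0.0428) and -1.15 ± 0.40 (adjusted p = 0.0349). These calls were close to the threshold. Hist1h1d was no longer called when any 1 ruxolitinib pool or control pool 6 was left out (adjusted p of 0.0637 to 0.127), and Hist1h1e when any 1 ruxolitinib pool or control pool 4 or 5 was left out (0.0633 to 0.209) or with limma-voom (0.0635). Hist1h1e overlaps Hist1h2be on the same strand, and how reads in the overlap were assigned was not given in the sources used here. Hist1h1b (log2 fold change -1.11 ± 0.51, adjusted p = 0.0874) and Hist1h1a (-1.16 ± 0.64, adjusted p = 0.145) did not pass, and the testis gene Hist1h1t had no count. Without ruxolitinib pool 2 the log2 fold change of Hist1h1a was -1.92, and without control pool 6 it was -0.80.

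H2B, which pairs with H2A in the nucleosome, was the type with the most rises. Hist1h2bg (chromosome 13, 23571396 to 23572013) had 8.62, 11.2 and 5.99 CPM in ruxolitinib pools and 0.775, 0.980 and 0.436 CPM in control pools. This was the largest log2 fold change of the tested members, at 3.55 ± 0.43 (adjusted p = 0.000181). Hist1h2bc (chromosome 13, 23684199 to 23692908) had 35.9, 42.5 and 22.2 CPM in ruxolitinib pools and 10.4, 7.91 and 10.1 CPM in control pools. It was the most abundant H2B gene per kilobase, at 18.6 CPM per kb, and its log2 fold change was 1.82 ± 0.28 (adjusted p = 0.000578).
Hist2h2be (chromosome 3, 96221119 to 96223738) had 10.4, 15.8 and 7.95 CPM in ruxolitinib pools and 2.49, 3.07 and 0.871 CPM in control pools. Hist3h2ba (chromosome 11, 58948920 to 58949533) had 11.5, 25.3 and 12.2 CPM in ruxolitinib pools and 3.98, 6.99 and 4.48 CPM in control pools. Both rose with no overlap, by 2.41 ± 0.47 (adjusted p = 0.00203) and 1.67 ± 0.38 (adjusted p = 0.00471) on the log2 scale. The least abundant of the 5 was Hist1h2bq, with 1.02, 1.52 and 1.07 CPM in ruxolitinib pools and 0.443, 0.327 and 0.311 CPM in control pools (log2 fold change 1.71 ± 0.52, adjusted p = 0.0190). With 8, 5 and 5 counts in control pools, Hist1h2bq passed the filter only through the ruxolitinib group and had to come out higher. The adjusted p of Hist1h2bq is therefore no support for a rise. It was not called without ruxolitinib pool 2 or control pool 5 (adjusted p of 0.0744 to 0.0918) or with no filter (0.0798), and only 4.07% of the 75-base windows in its transcripts occur in no other annotated gene, so its counts may include those of near-identical genes.
The single H2B fall was Hist1h2bj (chromosome 13, 22043214 to 22043676), which had 2.12, 0.759 and 1.70 CPM in ruxolitinib pools and 8.63, 7.71 and 12.3 CPM in control pools. Its log2 fold change was -2.63 ± 0.42 (adjusted p = 0.000686), with every ruxolitinib pool below every control pool. The other 5 tested H2B genes did not pass, among them Hist1h2be, at 2.92 ± 0.571 CPM in ruxolitinib pools and 1.66 ± 0.705 CPM in control pools (SD, n = 3 each).

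Of the 8 tested H2A genes, 4 fell and 1 rose. Hist1h2ao had 1.31, 1.59 and 1.51 CPM in ruxolitinib pools and 6.58, 7.26 and 10.9 CPM in control pools. Hist1h2ae (chromosome 13, 23570517 to 23571220) had 0.657, 2.96 and 0.883 CPM in ruxolitinib pools and 5.70, 4.84 and 7.72 CPM in control pools. Both fell with no overlap, by log2 fold changes of -2.47 ± 0.35 (adjusted p = 0.000378) and -2.03 ± 0.55 (adjusted p = 0.0112). Ruxolitinib pool 2 stood above the other ruxolitinib pools for Hist1h2ae, and without it the log2 fold change was -2.96. Of the windows of Hist1h2ao 6.90% were unique.
Hist1h2ab had 0, 0.607 and 0.820 CPM in ruxolitinib pools and 2.16, 2.68 and 2.55 CPM in control pools. It fell by 2.33 ± 0.75 on the log2 scale (adjusted p = 0.0248), but was not called without ruxolitinib pool 2 or control pool 5 (0.0528 to 0.0682), and without ruxolitinib pool 3 its log2 fold change was -3.004. Hist1h2ai had 4, 4 and 2 counts in ruxolitinib pools and 32, 11 and 14 in control pools, so it passed the filter only through the control group. It fell by 2.21 ± 0.65 on the log2 scale (adjusted p = 0.0162) and was not called without ruxolitinib pool 1 or 3 (0.0511 to 0.0662). It was not tested without control pool 4 or 6, with the 1 CPM filter or with haemoglobin genes removed. Of its windows 10.7% were unique. The 1 H2A rise was that of Hist1h2ac, with 1.53, 2.88 and 1.58 CPM in ruxolitinib pools and 0.332, 0.392 and 1.24 CPM in control pools. Its log2 fold change of 1.60 ± 0.61 had an adjusted p of 0.0482. It kept its call without control pool 6, where the log2 fold change was 2.43, and was no longer called when any other pool was left out (0.0716 to 0.192), with RLE factors (0.0517) or with haemoglobin genes removed (0.0506).
Outside the Hist1 locus, Hist3h2a had 3.65, 4.86 and 3.53 CPM in ruxolitinib pools and 1.55, 1.70 and 5.54 CPM in control pools. Control pool 6 was above every ruxolitinib pool, and the log2 fold change of 0.46 ± 0.51 did not pass (adjusted p = 0.473). Without that pool it was 1.29 (adjusted p = 0.0152). Over the alternatives the adjusted p ran between 0.842 without control pool 4 and 0.00233 with scaling to CD8 identity genes. Hist3h2a overlaps Trim17 on the same strand, and how reads in the overlap were assigned was not given in the sources used here. Trim17 had 4, 4 and 6 counts in ruxolitinib pools and 12, 25 and 0 in control pools. Hist2h2ac had 0, 1.14 and 0.379 CPM in ruxolitinib pools and 1.27, 0.850 and 0.622 CPM in control pools and did not pass either (log2 fold change -0.87 ± 0.87). The log2 fold change of Hist2h2ac was -2.17 without ruxolitinib pool 2 and -0.28 without ruxolitinib pool 1.

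H3, whose tail carries many of the regulatory marks of chromatin, gave 4 falls among its 8 tested genes. Hist1h3c (chromosome 13, 23744973 to 23745602) had 0.877, 1.82 and 2.33 CPM in ruxolitinib pools and 8.19, 9.15 and 14.3 CPM in control pools. Hist1h3h had 0.365, 0.835 and 0.694 CPM in ruxolitinib pools and 2.60, 4.12 and 7.97 CPM in control pools. Neither overlapped between groups, and the log2 fold changes were -2.64 ± 0.42 (adjusted p = 0.000682) and -2.94 ± 0.55 (adjusted p = 0.00169), the second being the lowest of the tested members. Hist1h3h had 6.53% unique windows. Hist1h3e (-2.43 ± 0.46, adjusted p = 0.00173) and Hist1h3a (-1.66 ± 0.42, adjusted p = 0.00763) also fell. Hist1h3i had 0.584, 1.75 and 1.64 CPM in ruxolitinib pools and 1.60, 2.75 and 5.04 CPM in control pools. These groups overlapped and the difference did not pass (log2 fold change -1.23 ± 0.57, adjusted p = 0.0905). It passed without control pool 4 (-1.55, adjusted p = 0.0434), while over the alternatives the adjusted p reached 0.559, with scaling to CD8 identity genes.

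H4, which pairs with H3, gave 5 falls among its 9 tested genes. Hist1h4i (chromosome 13, 22040636 to 22041362) was the most abundant H4 gene per kilobase, at 46.8 CPM per kb. It had 17.4, 30.8 and 16.6 CPM in ruxolitinib pools and 28.9, 45.2 and 65.0 CPM in control pools. Ruxolitinib pool 2 lay above control pool 4, so the groups overlapped, and the log2 fold change was -1.10 ± 0.34 (adjusted p = 0.0209). It was not called without ruxolitinib pool 1 or 3 or control pool 6 (0.0527 to 0.0904).
Hist1h4c had 0.292, 0.683 and 1.14 CPM in ruxolitinib pools and 3.71, 3.86 and 1.56 CPM in control pools (log2 fold change -2.08 ± 0.59, adjusted p = 0.0135). Hist1h4h had 1.02, 2.05 and 0.757 CPM in ruxolitinib pools and 2.16, 3.73 and 3.73 CPM in control pools (-1.33 ± 0.49, adjusted p = 0.0425). Both fell without overlap, and both calls depended on single pools: Hist1h4c was not called without ruxolitinib pool 1 or 2 (0.0504 to 0.0565), and Hist1h4h not without ruxolitinib pool 1 or 3 or control pool 5 or 6 (0.0715 to 0.130). Hist1h4d (-1.71 ± 0.39, adjusted p = 0.00463) and Hist1h4f (-1.86 ± 0.56, adjusted p = 0.0179) fell as well, with Hist1h4f not called without ruxolitinib pool 1 or 3 (0.0693 to 0.0700). Hist1h4f had 5, 7 and 4 counts in ruxolitinib pools and 23, 15 and 31 in control pools. It passed the filter only through the control group and had to come out lower, so its adjusted p is no support for a fall.
Hist4h4 (chromosome 6), the only member outside the other loci, had 1.97, 4.02 and 0.947 CPM in ruxolitinib pools and 0.940, 0.850 and 1.74 CPM in control pools. The groups overlapped and the log2 fold change of 0.96 ± 0.59 did not pass (adjusted p = 0.192), and without ruxolitinib pool 2 it was 0.30. Hist1h4k (0.15 ± 0.60, and between -0.24 without ruxolitinib pool 2 and 0.86 without control pool 5) and Hist2h4 (-1.18 ± 0.52, adjusted p = 0.0790) did not pass either. Of the 23 members called in all, 13 kept the call whichever single pool was left out.

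The members were also grouped by their annotated 3′ ends. This grouping was made after the fold changes had been seen and is a description with no test. Over all 41 tested members 17.1% rose and 39.0% fell, beside 29.9% and 25.3% of all tested genes. Of the 4 tested members whose 3′ region holds no stem-loop, Hist1h2bc, Hist2h2be and Hist1h2bq rose and Hist1h1a did not pass, and their median log2 fold change was 1.77. Those that rose are all H2B genes, so type and 3′ end cannot be told apart here. Hist1h2bq passed the filter only through the ruxolitinib group. The annotation of Hist1h1a runs only 48 bases past its stop codon. Of the 18 tested members whose transcript reaches 100 bases or more past the stem-loop, 4 rose and 7 fell (median -0.85). The 4 are Hist1h1c, Hist1h2bg, Hist3h2ba and Hist1h2ac, which run 840, 155, 169 and 2010 bases past it.
Of the 13 tested members that end within 100 bases of the stem-loop, 0 rose and 7 fell (median -1.66), among them Hist1h2bj and Hist1h3c, with 23 and 74 bases past it. Of the 6 tested members annotated only to the stop codon, 0 rose and 2 fell (median -1.23). A long annotated end did not by itself go with a rise, since Hist1h2ae and Hist1h4i run 151 and 330 bases past their stem-loops and fell. The deposited lengths of the 7 members that rose were 614 to 2620 bases (median 1560), and those of the 16 that fell were 391 to 7425 bases (median 582). The counts do not tell mRNAs that end at the stem-loop from longer ones, so the form of the transcripts was not measured.

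**Figure D4:**
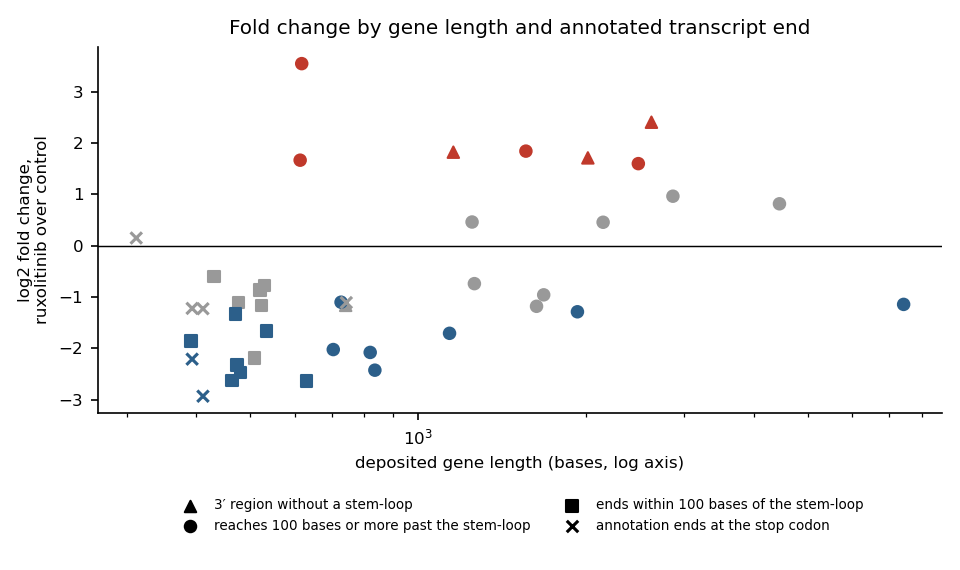
Log2 fold change, ruxolitinib over control, against deposited gene length in bases on a log axis for the 41 tested members, with the symbol giving the annotated 3′ end; red rose, blue fell and grey did not pass. The 7 red symbols lie at 614 bases or longer and are triangles (no stem-loop) or circles (100 bases or more past it), and no square or cross is red.

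Many H2A and H2B genes stand head to head and share the stretch between their starts. The members form 12 such pairs of 1 H2A and 1 H2B gene with 175 to 305 bases between the annotated starts. In 4 pairs both genes were tested, and in 2 of these the partners were called in opposite directions. In the first, Hist1h2bg rose and Hist1h2ae fell. In the second, Hist1h2bq rose and Hist1h2ao fell, both genes with few unique windows. Hist1h2bq was tested only through the ruxolitinib group, so its direction was set by the filter. In the pair of Hist1h2ac and Hist1h2bc both rose, and in that of Hist2h2ac and Hist2h2be the H2B gene rose while the H2A gene did not pass.
The stretch between the starts was available for 8 pairs from the RefSeq promoters (GRCm38.p6) and was searched for the octamer ATTTGCAT, a known element of H2B promoters, for TATAAA and for CCAAT, on both strands and without overlap between matches. The octamer was found in 3 of the 8, which are 3 of the 4 pairs with both genes tested. The remaining tested pair, Hist1h2ao with Hist1h2bq, was not among the 8. Neither of its genes had the octamer in the 250 bases before its start. The 3 stretches with the octamer are shown because the same stretch serves genes with opposite and with like calls. Each is the plus strand of mm10, 5′ to 3′, with the H2A gene starting leftward from its left end, the H2B gene rightward from its right end, and matches to the 3 motifs on either strand in capitals.
Hist1h2ae and Hist1h2bg, chr13:23571221-23571395: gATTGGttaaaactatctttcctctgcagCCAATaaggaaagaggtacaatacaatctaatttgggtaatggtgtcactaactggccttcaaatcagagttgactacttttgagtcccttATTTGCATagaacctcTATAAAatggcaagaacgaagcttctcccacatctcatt
Hist1h2ac and Hist1h2bc, chr13:23683949-23684198: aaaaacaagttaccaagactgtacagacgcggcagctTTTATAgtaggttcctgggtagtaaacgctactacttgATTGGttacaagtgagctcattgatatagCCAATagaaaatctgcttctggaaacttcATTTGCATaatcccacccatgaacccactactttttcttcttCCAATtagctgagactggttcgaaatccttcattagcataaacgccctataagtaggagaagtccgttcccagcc
Hist2h2ac and Hist2h2be, chr3:96220881-96221118: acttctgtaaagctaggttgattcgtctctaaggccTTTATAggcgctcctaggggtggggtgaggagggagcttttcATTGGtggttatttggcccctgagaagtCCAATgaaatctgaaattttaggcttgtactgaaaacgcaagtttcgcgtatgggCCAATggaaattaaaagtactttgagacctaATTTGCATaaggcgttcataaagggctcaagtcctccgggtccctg
Each of the 3 holds 1 octamer and 1 TATAAA. Over the 250 bases before the start of the 61 members matched in RefSeq, the octamer was in 7 of 17 H2A and 6 of 16 H2B promoters and in 0 of the H1, H3 and H4 promoters, against 1.60% of all 32817 promoters. TATAAA was in 29 and CCAAT in 50 of the 61, against 12.4% and 33.8% of all promoters, and CCAAT was in 3 of 12 H4 promoters. A match is a description of the letters and no measurement of binding.

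**Figure D5:**
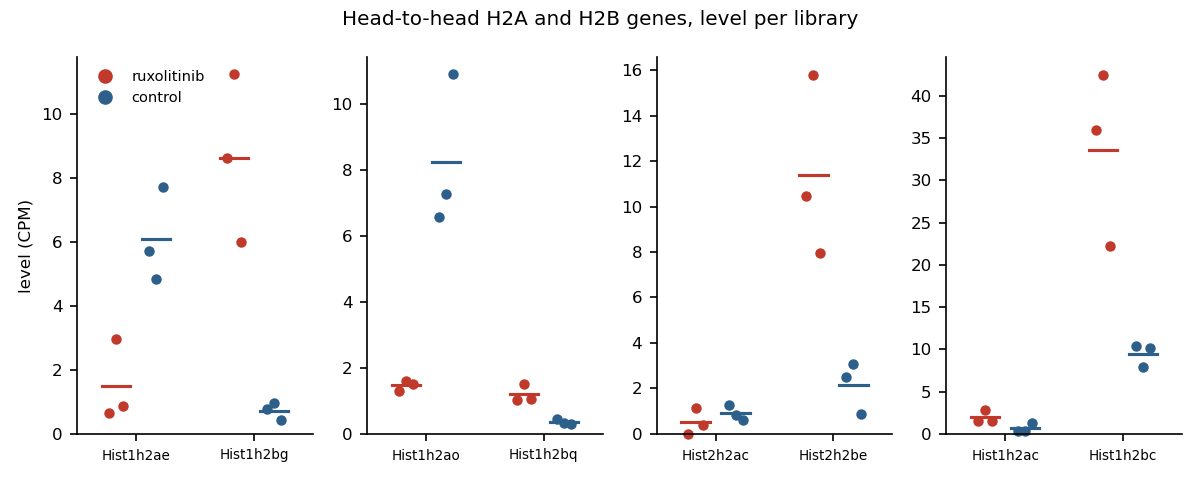
Level in CPM in every library of the H2A gene (left) and the H2B gene (right) of the 4 head-to-head pairs with both genes tested, with ruxolitinib in red, controls in blue and lines at the means. For Hist1h2ae with Hist1h2bg and Hist1h2ao with Hist1h2bq the H2A points are lower and the H2B points higher under ruxolitinib, for Hist1h2ac with Hist1h2bc both are higher, and for Hist2h2ac the groups overlap; each panel has its own axis.

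The genes that make histone mRNA, carry histones or replicate DNA give the setting. Of 16 tested genes of histone mRNA 3′ processing, 0 rose and 6 fell (median log2 fold change -0.35), where 29.9% of all tested genes rose and 25.3% fell. The count that fell was 2 without ruxolitinib pool 1 or control pool 5. Lsm11, a part of the U7 particle that cleaves histone pre-mRNA, was at 8.16 ± 1.56 CPM in ruxolitinib pools and 37.0 ± 14.3 CPM in control pools (SD, n = 3 each), a log2 fold change of -2.18 ± 0.31 (adjusted p = 0.000393). The cap-binding gene Ncbp1 fell by 0.81 ± 0.18 on the log2 scale (adjusted p = 0.00369). Slbp (0.24 ± 0.22) and Npat (0.00), the activator of histone gene transcription, did not pass.
Of 11 tested histone variants, which lie outside the clusters, 2 rose and 6 fell (median -0.92), beside the same shares of all tested genes, and 1 rose without ruxolitinib pool 1 or 2. The macroH2A gene H2afy was at 87.0 ± 18.1 CPM in ruxolitinib pools and 314 ± 32.9 CPM in control pools, a log2 fold change of -1.85 ± 0.23 (adjusted p = 0.000189), and the H2A.Z family gene H2afv fell by 1.58 ± 0.26 (adjusted p = 0.000750). The rises were those of H3f3a, which encodes a replacement H3, and H3f3c.
Of 23 histone chaperone and import genes, 2 rose and 8 fell (median -0.29), beside the same 29.9% and 25.3% of all tested genes. The falls were led by the H2A and H2B chaperone Nap1l1 (-1.80 ± 0.24, adjusted p = 0.000280) and the replacement H3 chaperone Hira (-1.58 ± 0.23, adjusted p = 0.000444). The fall count was 4 without ruxolitinib pool 1 or control pool 5, and the rise count 1 without ruxolitinib pool 1 or 2 or control pool 5.

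Since histone transcription goes with S phase, the histone counts were set against the summed counts of 38 DNA replication genes in the same library, a ratio that needs no scaling. Among these 38 genes 4 rose and 14 fell (8 fell without ruxolitinib pool 1, and 2 rose without ruxolitinib pool 2), beside 29.9% higher and 25.3% lower over all tested genes. The falls were led by the nucleotide enzyme gene Dut (-2.52 ± 0.26, adjusted p = 7.54e-05) and by Rpa2 of the single-strand binding complex (-1.95 ± 0.26, adjusted p = 0.000300). Of 20 mitosis genes, beside those shares, 3 rose, among them Kif20a (2.75 ± 0.51, adjusted p = 0.00158) and Mki67 (1.60 ± 0.33, adjusted p = 0.00255), and 1 fell, a count of 0 to 4 when single pools were left out (0 without ruxolitinib pool 1 or 3, 4 without pool 2, 2 without control pool 4 or 6).
Per 1000 replication-gene counts there were 72.2, 68.3 and 55.5 histone counts in ruxolitinib pools and 32.4, 38.8 and 50.2 in control pools. Every ruxolitinib pool was above every control pool, with a log2 difference of 0.71 and an exact permutation p of 0.1. The excess was in H1 and H2B. H1 counts were 38.4, 31.1 and 25.8 per 1000 in ruxolitinib pools and 7.63, 8.56 and 11.2 in control pools, and H2B counts were 22.2, 22.0 and 16.8 in ruxolitinib pools and 7.24, 7.39 and 7.90 in control pools. Most H1 counts were those of Hist1h1c. The other H1 genes had 66, 88 and 112 counts in ruxolitinib pools and 203, 209 and 280 in control pools. Hist1h1c itself had 1717, 1896 and 1283 counts in ruxolitinib pools and 510, 467 and 627 in control pools. With its counts left out of the histone counts the groups overlap, so the separation of the groups rested on that gene. H3 counts were 1.96, 2.49 and 2.86 per 1000 in ruxolitinib pools and 4.54, 5.42 and 8.24 in control pools, and H2A counts were 2.41, 3.48 and 2.84 in ruxolitinib pools and 4.21, 4.57 and 6.35 in control pools, lower in every ruxolitinib pool for both types. For H4 the groups overlapped, at 7.28, 9.26 and 7.22 per 1000 in ruxolitinib pools and 8.80, 12.9 and 16.5 in control pools (exact permutation p = 0.2).

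The 8 members without a count were Hist2h2aa1, Hist2h2aa2, Hist2h3c1, Hist2h3b, Hist2h2bb, Hist2h2ab, Hist1h1t and Hist1h2aa. The first 5 share every 75-base window with another annotated gene. The read length and the treatment of reads that match several genes were not given in the sources used here, so their counts of 0 cannot be read as absence of expression. Of the members that rose, 6 of 7 had at least 50% unique windows, and of those that fell, 10 of 16 did.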

How the data were processed

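RNA sequencing was done on 6 libraries of CD8 microbead-selected marrow cells. The authors deposited raw read counts per gene, as whole numbers, with biotypes, mm10 positions and gene lengths. The submitters' processing notes name HISAT2 2.0.5 and mm10; the counting program was not given in the sources used here.

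The test was the quasi-likelihood test of edgeR 4.0.16 in R 4.3.3 (filterByExpr, TMM factors, robust glmQLFit, a model with the group alone), with Benjamini-Hochberg adjustment over the 13480 genes kept and a threshold of 0.05. The SE is the log2 fold change divided by the square root of F. CPM values are TMM-scaled. For sums, shares and ratios an exact two-sided permutation test was used, whose lowest p here is 0.1. Scripts were tested on simulated data.

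Depth was 13829808 to 17708196 counts per library, and members near 1 CPM carry a large counting error. Named members were the 3 most abundant per kilobase of each type, all H1 genes, the most changed called members of each type and the tested Hist2, Hist3 and Hist4 members, plus the 2 smallest p of each other list; Slbp, Npat, H3f3a, H3f3c and members outside this rule were chosen after their values were seen. The members and lists were chosen with earlier results of these data known. Alternatives were RLE factors, DESeq2 1.42.0, limma-voom (limma 3.58.1), no filter, a filter at 1 CPM in 3 libraries, haemoglobin genes removed, scaling to CD8 identity genes, and each pool left out. Stem-loops were allowed up to 2 mismatches and came from GENCODE M21 transcripts, promoters from RefSeq (GRCm38.p6).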

Additional observations from a re-analysis of the deposited data

Results flagged for a closer look

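3 transcribed loci near or like the clustered histone genes, outside the protein-coding members, were higher under ruxolitinib than in the controls. Over all tested genes 29.9% were higher. The processed pseudogene Hist1h2al had 67, 60 and 65 counts in ruxolitinib pools 1 to 3 and 15, 15 and 21 counts in control pools 4 to 6. That is 4.52 ± 0.398 CPM in ruxolitinib pools and 1.04 ± 0.244 CPM in control pools (SD, n = 3 each), a log2 fold change of 2.11 ± 0.38 (edgeR, adjusted p = 0.00135). Gm20632, annotated antisense to Hist2h2aa2, was at 2.19 ± 0.631 CPM in ruxolitinib pools and 0.277 ± 0.0987 CPM in control pools (2.93 ± 0.54, adjusted p = 0.00147). Gm20633, antisense to Hist2h2aa1, was at 1.09 ± 0.435 CPM in ruxolitinib pools and 0.136 ± 0.138 CPM in control pools (2.89 ± 0.81, adjusted p = 0.0129). In control pools Gm20632 had 7, 3 and 4 counts and Gm20633 had 5, 2 and 0. Both passed the filter on low counts only through the ruxolitinib group and so had to come out higher. Their adjusted p-values are therefore no support for a rise. Both Hist2h2a genes had no count, and since the use of strand in counting was not given in the sources used here, reads of a gene and of its antisense partner cannot be told apart.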

How the results depend on the processing

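Under RLE factors, no filter, the 1 CPM filter, DESeq2, limma-voom and removal of haemoglobin genes, 6 to 7 of the members that rose and 14 to 16 of those that fell kept their call. No summed level changed sign under total-count or RLE scaling, removal of haemoglobin genes, restriction to tested members or leaving out single pools. With scaling to CD8 identity genes the log2 differences became 0.65 for the H2A, 0.15 for the H3 and 0.79 for the H4 sum, 12 members were higher and 0 lower, and the counts higher and lower were 27 and 0 (DNA replication), 19 and 0 (mitosis), 5 and 0 (variants), 13 and 0 (3′ processing) and 19 and 0 (chaperones). Log2 fold changes of called genes that turned positive there were 0.70 for Hist1h1d, 0.60 for Hist1h1e, 0.68 for Hist1h4h, 0.87 for Hist1h4i, 0.32 for Hist1h3a, 0.14 for Hist1h4d, 0.048 for Hist1h4f, 0.014 for H2afy, 0.30 for H2afv, 1.16 for Ncbp1, 0.11 for Nap1l1 and 0.37 for Hira, and of members that had not passed 0.79 for Hist1h1a, 0.63 for Hist1h1b, 0.50 for Hist1h3i, 0.79 for Hist2h4 and 1.05 for Hist2h2ac, all under the 2.00 of the median gene; that scaling moves all genes up by its construction.

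Members with at least 50% unique windows gave 10 falls, and the H1 sum without Hist1h1c -1.18; both alternatives were added after seeing the data. With single pools left out, 5 to 9 members rose and 9 to 15 fell. In the same fits replication genes gave 2 to 6 rises and 8 to 16 falls, mitosis genes 0 to 4 falls, variants 1 to 3 rises, 3′ processing genes 2 to 5 falls, and chaperones 1 to 3 rises and 4 to 10 falls. Mitosis falls were 3 with no filter, 3 with limma-voom, 2 with DESeq2 and 2 without haemoglobin genes, variant rises 1 with no filter, and chaperone rises 1 with no filter and 4 with DESeq2. The cause was not tested. No paired analysis was possible because the groups share no replicate numbers. Depth limits the members near 1 CPM.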
